A study of Mus musculus with 10 samples.

Results

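The MHC class II genes described here are *H2-Aa*, *H2-Ab1*, *H2-Eb1*, *Cd74*, *Ciita*, *H2-DMa* and *H2-DMb1*, which are 7 of the 35275 Ensembl gene IDs counted in RNA-seq libraries of the proximal small intestine. They were chosen by name and not by a threshold on a measured value. The study compared 5 WT mice with 5 mice labelled KO, with 1 library per mouse and no pooling of mice. Per the labels, all mice were 8 to 10 weeks old. KO is a knockout of the metal transporter gene *Zip14* (*Slc39a14*). The paper's methods describe the sequenced mice as whole-body knockouts with WT controls of the same strain, whereas the series title names a deletion in enterocytes, and which of the deletions the mice carried could not be read from the counts. Levels are given as CPM, the read counts scaled to library size with the TMM factors.

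MHC class II molecules are pairs of an alpha and a beta chain that hold peptides of proteins taken up by a cell and show them to CD4 T cells. *H2-Aa* and *H2-Ab1* encode the chains of H2-A, and *H2-Eb1* encodes the beta chain of H2-E. The invariant chain, encoded by *Cd74*, fills the groove of new class II molecules, and H2-DM, made of the chains from *H2-DMa* and *H2-DMb1*, helps to exchange the remnant of the invariant chain for a peptide. *Ciita* encodes the class II transactivator, which is recruited by the RFX and NF-Y factors bound at the X and Y boxes of class II promoters and is induced by interferon gamma. B cells, dendritic cells and macrophages carry class II molecules, and epithelial cells of the small intestine can express them as well.

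The stretches that hold the X and Y boxes are shown because the members varied together across the libraries. RefSeq promoter sequences, which run from 250 bases before to 50 bases after a start, were at hand for 4 of the 7 members. Capitals mark the letters GNAACT, as part of the X box, and GATTGG, as the Y box core read on the strand of the gene. Both were chosen after these promoters had been read. All are 5′ to 3′ on the strand of the gene, from chr17:34287863-34287910 (minus strand), chr17:34305770-34305816 (plus strand) and chr17:34153091-34153120 (plus strand) of GRCm38.p6.
*H2-Aa*: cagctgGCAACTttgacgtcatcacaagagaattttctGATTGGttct
*H2-Eb1*: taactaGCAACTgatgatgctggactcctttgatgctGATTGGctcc
*H2-DMb1*: tacctaGTAACTgatgatgctaggctgatt
In the GENCODE annotation *H2-DMb1* begins at 34153072, so that the last stretch lies inside the gene there and before the start only in RefSeq. It is therefore shown in part and ends before its second box. In *H2-Aa*, *H2-Eb1* and *H2-DMb1* the first letters of the 2 boxes lie 32, 31 and 32 bases apart, and the X letters begin 81, 91 and 94 bases before the RefSeq start. Of 32851 RefSeq windows of this length, 42.8% held GNAACT and 16.1% held GATTGG on either strand. Both on the strand of the gene with their first letters 20 to 40 bases apart were in 49 windows (0.149%), those of *H2-Aa*, *H2-Eb1*, *H2-DMb1* and also *H2-Eb2* among them. *H2-Eb2* did not vary with the members, as given with its values among the other class II genes. Neither *H2-DMa* window held such a pair. A match of letters is a description and does not show that a factor was bound.

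The libraries held between 16729787 and 20819678 counts in WT mice and between 17118742 and 19414828 in KO mice. *Slc39a14* had 260.4 ± 62.5 CPM in WT and 102 ± 32.9 CPM in KO (SD, n = 5 each), with KO mouse 1 at 160.1 CPM and the other KO mice between 78.5 and 93.8 CPM. The tissue labels and the markers did not fully match. All 5 ileum genes passed the test as higher in KO, with *Fabp6*, the ileal bile acid binding protein, at 1.74 CPM or less in WT and between 2307 and 9058 CPM in KO. All 8 smooth muscle genes were also higher, with a summed level of 1084 to 1914 CPM in WT and 2868 to 8584 CPM in KO, highest in KO mouse 4. Genotype and the make-up of the segments therefore cannot be told apart. In these bulk samples, fewer cells of a type and less RNA per cell cannot be told apart either.

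Per kilobase of exon, the invariant chain was the most abundant of the 7 members in every library. In WT mice *Cd74* had 431 ± 34.6 CPM per kilobase (SD, n = 5), followed by *H2-Ab1* with 152 ± 11.6 and *H2-Eb1* with 136 ± 8.15 CPM per kilobase. The WT ranges of *H2-Ab1* (139 to 167) and *H2-Eb1* (127 to 145) overlapped. *H2-Aa* had 67.5 ± 5.26, *H2-DMb1* 17.1 ± 0.550, *H2-DMa* 9.13 ± 0.742 and *Ciita* 3.12 ± 0.724 CPM per kilobase. The transcripts of *H2-Aa*, *H2-Ab1* and *H2-Eb1* were thus well above those of the peptide exchange factor, and the transactivator was lowest in all 10 libraries. The order of neighbours depended on the length used. Per kilobase of the principal transcript, *H2-Aa* (227 ± 17.7) was above *H2-Eb1* (159 ± 9.50), and *H2-DMa* (28.4 ± 2.31) was above *H2-DMb1* (20.4 ± 0.659).

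*H2-Aa* (ENSMUSG00000036594, chromosome 17 from 34282744 to 34287823 of GRCm38, minus strand) encodes the alpha chain of H2-A. Its level was 228, 251.9, 282, 253 and 266 CPM in WT mice 1 to 5 and 361, 358, 318, 237 and 1397 CPM in KO mice 1 to 5. KO mice 1, 2, 3 and 5 were above all WT mice, and KO mouse 4 was within the WT range. The log2 fold change, KO against WT, was 1.06 (SE 0.43, 95% interval 0.12 to 2.005), and the adjusted p of 0.0824 by edgeR's quasi-likelihood test did not pass the threshold of 0.05.

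*H2-Ab1* (ENSMUSG00000073421, chromosome 17 from 34257689 to 34269419, plus strand) encodes the beta chain that pairs with the product of *H2-Aa*. It had 358, 366, 408, 429.6 and 394 CPM in the WT mice and 490.2, 473, 369, 253 and 1653 CPM in the KO mice. KO mice 1, 2 and 5 were above the WT range, KO mouse 3 was inside it and KO mouse 4 was below it. *H2-Eb1* (ENSMUSG00000060586, chromosome 17 from 34305867 to 34316674, plus strand) had 249, 247, 282, 275 and 271 CPM in WT and 338, 349.7, 319.8, 231 and 932 CPM in KO. Here KO mouse 4 was again below all WT mice, and the other KO mice were above them. The log2 fold changes were 0.73 for *H2-Ab1* (95% interval -0.21 to 1.67, adjusted p = 0.212) and 0.71 for *H2-Eb1* (95% interval 0.01 to 1.42, adjusted p = 0.112) by edgeR's quasi-likelihood test.

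For both genes of the peptide exchange factor, KO mouse 5 was highest and KO mouse 4 lowest among KO mice. *H2-DMa* (ENSMUSG00000037649, chromosome 17 from 34119541 to 34139101, plus strand) had 32.3, 27.6, 30.5, 32.9 and 34.2 CPM in WT and 44.4, 49.1, 47.5, 31.5 and 172 CPM in KO. *H2-DMb1* (ENSMUSG00000079547, chromosome 17 from 34153072 to 34160230, plus strand) had 29.2, 27.0, 29.2, 29.0 and 29.0 CPM in WT and 41.5, 37.3, 41.2, 21.02 and 180.4 CPM in KO. KO mouse 4 was within the WT range for *H2-DMa* and below it for *H2-DMb1*, and the other KO mice were above the WT range for both. The log2 fold changes were 1.13 (95% interval 0.24 to 2.02, adjusted p = 0.0543) and 1.16 (95% interval 0.09 to 2.23, adjusted p = 0.0909), respectively, by edgeR's quasi-likelihood test. *H2-DMa* shares 360 of its 3448 exon bases with *Brd2* on the opposite strand. Without strand information, reads within these bases cannot be assigned to either gene. Reads of *H2-DMb1* may be split with *H2-DMb2*, since their transcripts are 95.7% identical over 1081 aligned bases.

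*Ciita* (ENSMUSG00000022504, chromosome 16 from 10480059 to 10528418, plus strand), the transactivator of the other members, had 28.3, 22.7, 34.2, 24.3 and 39.2 CPM in WT. In KO mice it had 24.7, 48.2, 39.2, 26.4 and 93.9 CPM. KO mouse 1, which was above the WT range for all 6 other members, was inside it for *Ciita*. The log2 fold change was 0.64 (SE 0.34, 95% interval -0.10 to 1.39, adjusted p = 0.167 by edgeR's quasi-likelihood test). *Ciita* shares 329 exon bases with *Dexi* on the opposite strand.

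*Cd74* (ENSMUSG00000024610, chromosome 18 from 60803848 to 60812652, plus strand), the invariant chain, had 635, 712, 737, 792 and 746 CPM in WT and 949.9, 993, 839, 556 and 3783 CPM in KO. KO mouse 4 was the lowest of all 10 mice, and KO mouse 5 had 3.81 times the next highest library. The log2 fold change was 0.98 (SE 0.45, 95% interval -0.01 to 1.96, adjusted p = 0.119 by edgeR's quasi-likelihood test).

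**Figure D1:**
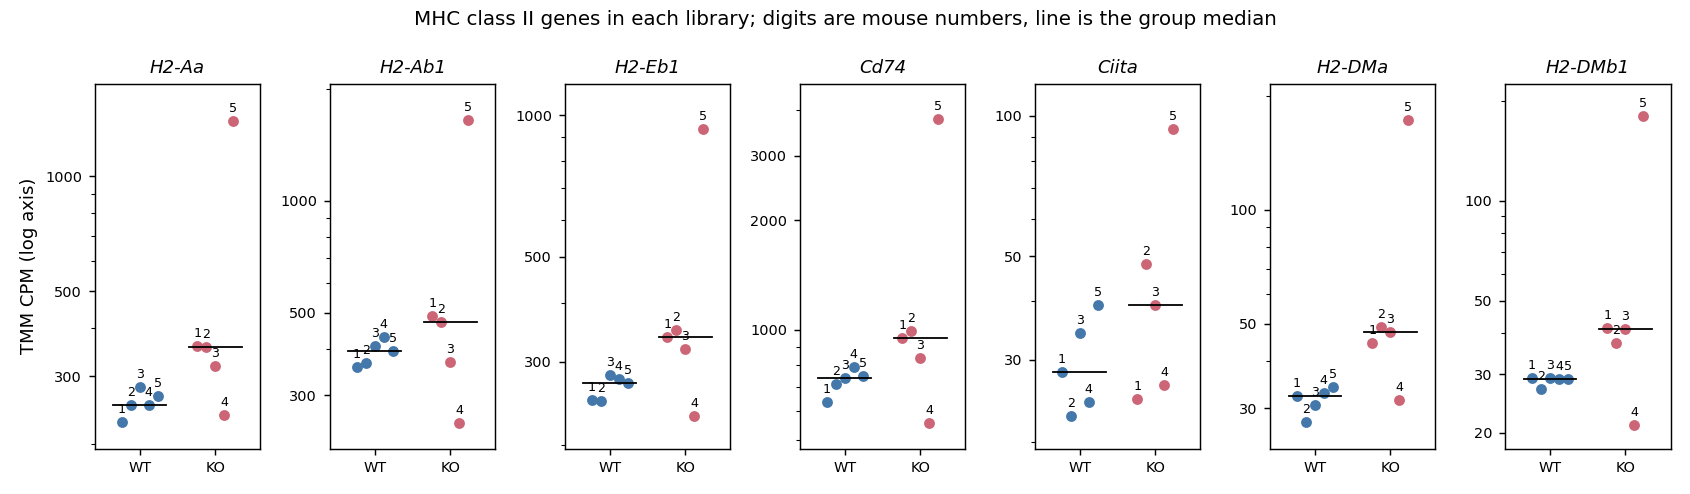
TMM CPM (log axis, a separate scale for each gene) of the 7 class II genes in 5 WT (blue) and 5 KO (red) libraries, with the mouse number above each point and a line at the group median. KO mouse 5 was the highest library for all 7 genes, and KO mouse 4 was below every WT mouse for *H2-Ab1*, *H2-Eb1*, *Cd74* and *H2-DMb1*.

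None of the 7 members passed the test between KO and WT, although the log2 fold change was positive for all of them. All 7 had enough counts for the test, and 0 were called by edgeR's quasi-likelihood test, where 29.9% of the 15610 genes tested were called, 16.0% as higher and 13.9% as lower in KO. An unadjusted p under 0.05 was seen for 4 of the 7 and for 43.3% of all genes tested. DESeq2 called 2 members as higher, *H2-Aa* and *H2-DMa*, and 14.9% of all genes to which it gave an adjusted p. The groups overlapped for every member, while they did not overlap for 21.1% of all genes tested. The median log2 fold change was 0.98 over the members and 0.03 over all genes tested. The WT mice were close together, with SDs of 0.925 CPM for *H2-DMb1* and 58.0 CPM for *Cd74*, where KO had SDs of 65.4 and 1330 CPM.

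The size of the fold changes depended on KO mouse 5. Without this mouse, the log2 fold changes ranged from 0.02 for *H2-Ab1* to 0.45 for *H2-DMa*, with a median of 0.22. In that fit *H2-DMa* was called (SE 0.13, 95% interval 0.16 to 0.75, adjusted p = 0.0299 by edgeR's quasi-likelihood test) and the other 6 were not, while 16.2% of all genes were called as higher. The 95% interval for *H2-Ab1* was then -0.39 to 0.42. Leaving out KO mouse 4 instead gave 3 called members, namely *H2-Aa* (1.249, adjusted p = 0.0487), *H2-DMa* (1.32, adjusted p = 0.0300) and *H2-DMb1* (1.39, adjusted p = 0.0426), by the same edgeR test, where 13.3% of all genes were called as higher. With the mean log2 CPM of epithelial genes as a covariate, 3 members turned negative, *H2-Ab1* (-0.34), *Cd74* (-0.11) and *H2-DMb1* (-0.10), and the other 4 were between 0.02 and 0.20 with none called. With that of pan-leukocyte genes 5 members and 9.67% of all genes were called as higher.

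**Figure D2:**
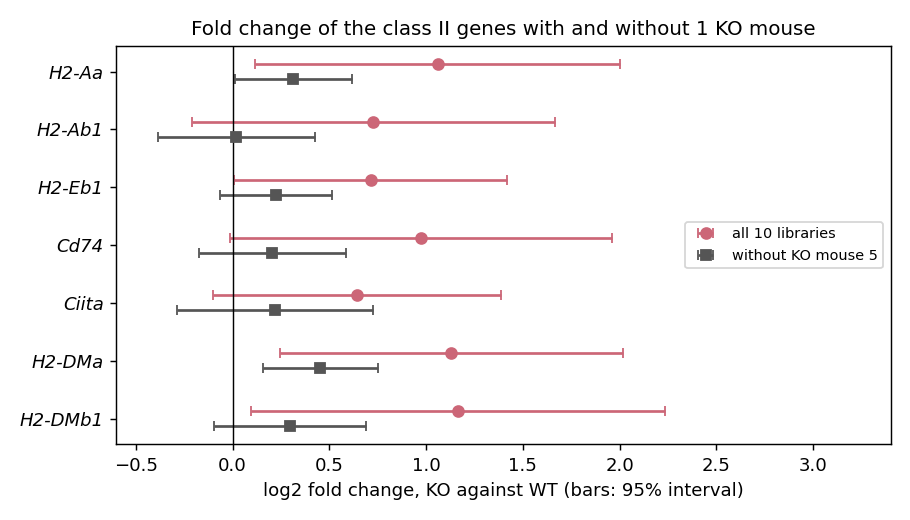
Log2 fold change, KO against WT, of each class II gene with its 95% interval from the edgeR fit, over all 10 libraries (red circles) and without KO mouse 5 (grey squares). The estimates lie between 0.64 and 1.16 with all mice and between 0.02 and 0.45 without KO mouse 5, and the intervals are narrower without it.

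KO mouse 5 was the highest of the 10 libraries for 7 of 7 members and for 13.7% of all genes tested. It was over 1.5 times the next highest library for 7 of 7 members and for 1.14% of all genes tested. The ratio to the next highest library was 1.95 for *Ciita*, 2.67 for *H2-Eb1*, 3.37 for *H2-Ab1* and 4.35 for *H2-DMb1*. Summed over the 7 members, the level was 1559 to 1836 CPM in WT mice. In KO mice 1 to 5 the sums were 2249, 2307, 1974, 1355 and 8212 CPM. The sums of KO mice 1, 2 and 3 were therefore all above the WT sums, that of KO mouse 4 was below them, and that of KO mouse 5 was far above the other 9.

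Of 4 ratios between members, 2 differed between WT and KO mice. *H2-Aa* relative to *H2-Ab1*, the chains of one molecule, was 0.638, 0.688, 0.692, 0.588 and 0.676 in WT mice and 0.736, 0.756, 0.862, 0.938 and 0.845 in KO mice. All 5 KO mice were above all 5 WT mice, including KO mouse 4, in which both genes were low. The difference of the mean log2 ratio was 0.33 (exact two-sided permutation test, p = 0.00794, the smallest that 5 against 5 allows, and 0.0317 after Benjamini-Hochberg adjustment over 4 ratios). *Cd74* relative to *H2-Ab1* was 1.78, 1.94, 1.81, 1.84 and 1.89 in WT and 1.94, 2.10, 2.27, 2.20 and 2.29 in KO. In 4 of 5 KO mice it was above all WT mice, with a log2 difference of 0.22 (exact two-sided permutation test, p = 0.0159, adjusted p = 0.0317). These ratios share *H2-Ab1*. They were not decided by KO mouse 5, without which the differences were 0.32 and 0.20 (adjusted p = 0.0317 for both, exact permutation test).

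The other ratios did not differ beyond the spread between mice. *H2-DMa* relative to *H2-DMb1* was 1.02 to 1.18 in WT and 0.954 to 1.497 in KO (log2 difference 0.11, exact permutation test, p = 0.381, adjusted p = 0.508). *Ciita* relative to *Cd74* was 0.0307 to 0.0526 in WT and 0.0248 to 0.0485 in KO (log2 difference -0.12, exact permutation test, p = 0.603, adjusted p = 0.603). KO mice 1 and 5 had the lowest *Ciita* to *Cd74* ratios of the 10 mice, 0.0260 and 0.0248. In KO mouse 5, *Ciita* was at 3.15 times and *Cd74* at 5.22 times its WT mean.

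**Figure D3:**
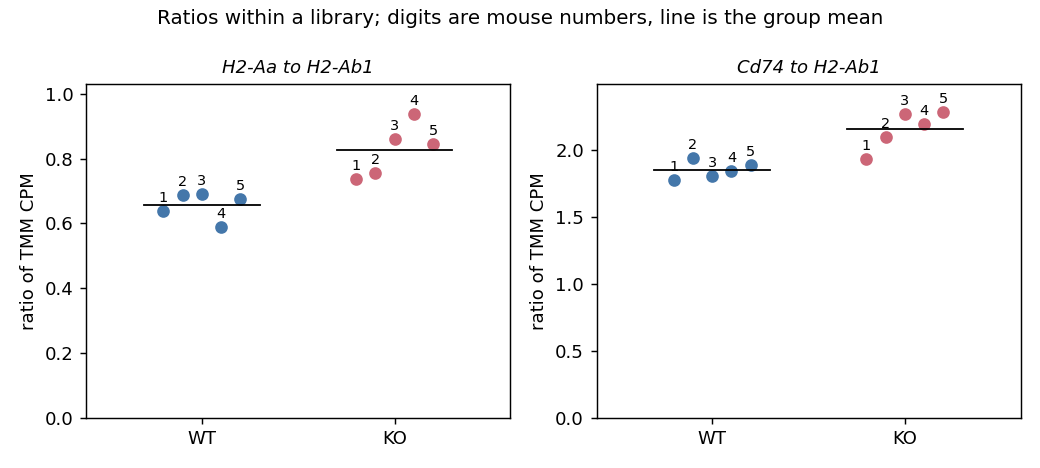
Ratio of TMM CPM within each library for *H2-Aa* to *H2-Ab1* (left) and *Cd74* to *H2-Ab1* (right) in 5 WT (blue) and 5 KO (red) mice, with the mouse number above each point and a line at the group mean. The *H2-Aa* to *H2-Ab1* ratio does not overlap between the groups, with 0.588 to 0.692 in WT and 0.736 to 0.938 in KO.

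B cell genes were high in a set of mice that overlapped only in part with that of the members. KO mice 2 and 3, above the WT range for 7 and 6 of the 7 members, were in both. Of the 14 B cell genes listed, 13 were counted. Their summed level was 30.8, 35.3, 40.02, 26.5 and 168 CPM in WT mice 1 to 5 and 27.9, 275, 307, 387 and 39.9 CPM in KO mice 1 to 5. They were thus high in WT mouse 5 and KO mice 2, 3 and 4, and low in the other 6 mice, KO mouse 5 included. *Ms4a1*, which encodes the B cell antigen CD20, was at 15.5, 33.1, 29.7 and 31.9 CPM in those 4 mice and at 0.892 CPM or less in the other 6. *Pax5*, the transcription factor that defines B cells, was at 0.157 CPM in KO mouse 5, which is 3 counts. Of 6 lymphoid follicle and M cell genes, 2 were called, both as higher in KO, namely *Cxcl13* and *Ltb*, which encode a chemokine and a cytokine of lymphoid follicles and were highest in the same 4 mice. Over all genes tested, 16.0% were called as higher. *Cxcl13* was at 8.07 CPM in WT mouse 5, at 19.8, 18.4 and 23.2 CPM in KO mice 2, 3 and 4, and at 4.46 CPM or less in the others. *Tnfaip2*, the most abundant gene of this list, had a log2 fold change of -0.18 and was at 12.1 and 14.3 CPM in KO mice 3 and 4, below the WT range. KO mouse 4, with the highest B cell sum, had the lowest sum of the 7 members.

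Of the 10 B cell genes tested, 1 was called as higher in KO, the follicle homing receptor gene *Cxcr5* (log2 fold change 2.11, adjusted p = 0.0424 by edgeR's quasi-likelihood test), and the median log2 fold change was 1.72. Over all genes tested, 16.0% were called as higher. The count of B cell genes was 8 without WT mouse 5, 5 without KO mouse 1, 4 (of 13 tested) without KO mouse 5, and 0 with any other single mouse left out. Over all genes, 2120 were called as higher without WT mouse 5, 2944 without KO mouse 1 and 2555 without KO mouse 5. KO mouse 5 was the highest library for 0 of the 10, against 7 of 7 members and 13.7% of all genes tested. Within the groups, the correlation of a B cell gene with the mean of the members over the 10 libraries was between -0.73 and -0.38. Without WT mouse 5 and KO mice 2, 3 and 4, a choice made after seeing the data, KO mouse 5 was 1 of 2 KO mice left beside 4 WT mice, and KO mouse 4, the lowest KO mouse for all members except *Ciita*, was left out. The fold changes of this fit are therefore high by the choice of mice. In it, 3 members were called, *H2-Aa* (1.78, adjusted p = 0.0496), *H2-DMa* (1.81, adjusted p = 0.0470) and *H2-DMb1* (1.95, adjusted p = 0.0462), by edgeR's quasi-likelihood test, and 3.41% of all genes were called as higher. With the mean log2 CPM of the B cell genes as a covariate, the same 3 members and 6.84% of all genes were called as higher.

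**Figure D4:**
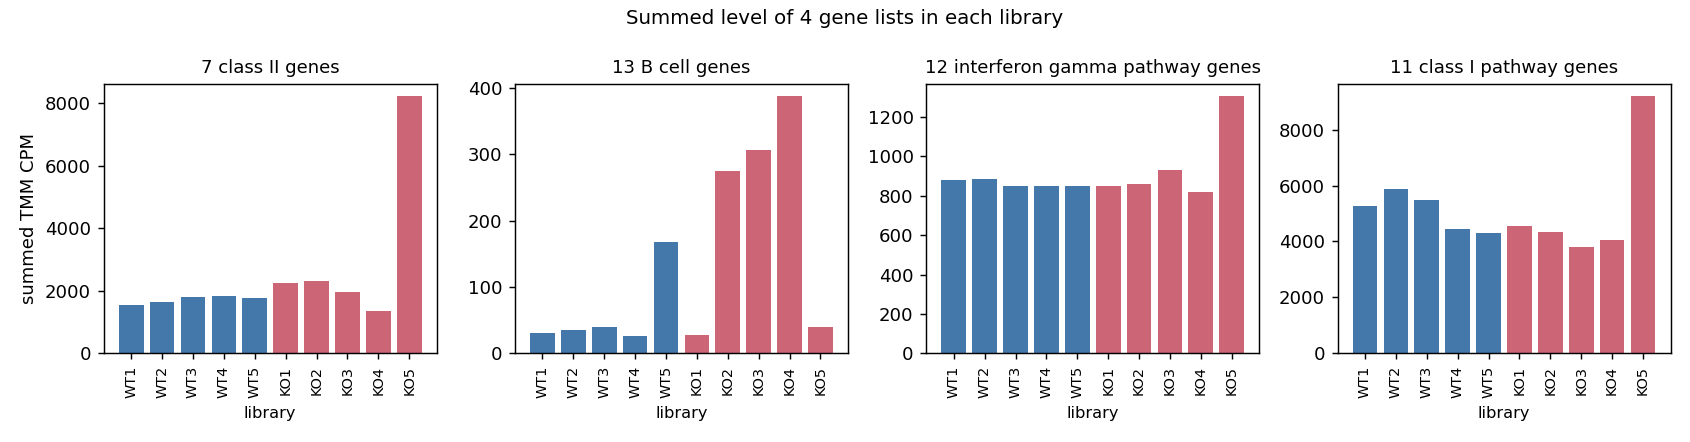
Summed TMM CPM of the 7 class II genes, 13 B cell genes, 12 interferon gamma pathway genes and 11 class I pathway genes in each of the 5 WT (blue) and 5 KO (red) libraries. KO mouse 5 has the tallest bar for class II (8212 CPM), interferon gamma (1303 CPM) and class I genes (9181 CPM) but not for B cell genes (39.9 CPM), which are highest in KO mice 2, 3 and 4 (275 to 387 CPM).

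Among the other genes of the class II pathway, 4 were highest in the mice with high B cell genes. *H2-Ob*, a chain of H2-O, the inhibitor of H2-DM, had 3.996, 2.55, 4.08, 2.69 and 16.3 CPM in WT and 3.72, 27.7, 33.1, 38.8 and 3.04 CPM in KO. *H2-DMb2*, the second beta chain gene of H2-DM, had 5.60, 5.29, 6.88, 4.62 and 13.2 CPM in WT and 4.06, 26.1, 30.4, 35.6 and 6.24 CPM in KO. *H2-Eb2* was likewise at 5.94 CPM in WT mouse 5 and between 9.77 and 13.1 CPM in KO mice 2, 3 and 4, with at most 1.40 CPM in the other mice. These genes and *H2-Oa*, the partner of *H2-Ob*, were each highest in the same 4 mice as the B cell genes. Their log2 fold changes were 1.84 for *H2-Ob*, 1.52 for *H2-DMb2*, 1.83 for *H2-Eb2* and 1.31 for *H2-Oa* (adjusted p = 0.0898, 0.0614, 0.0950 and 0.124 by edgeR's quasi-likelihood test). *H2-DMb1* and *H2-DMb2*, close relatives that lie in the same gene cluster, were thus highest in different mice. KO mouse 5 had 180.4 CPM of the first and 6.24 CPM of the second.

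Of the 11 genes tested in this list of further class II pathway genes, 1 was called, as lower in KO, and the median log2 fold change was 0.18. Over all genes tested, 13.9% were called as lower. The called gene was *Ifi30*, the thiol reductase of antigen-processing compartments, with 155 to 183 CPM in WT and 74.2 to 133 CPM in KO (log2 fold change -0.68, adjusted p = 0.0104 by edgeR's quasi-likelihood test). The proteases *Ctss*, *Ctsl* and *Lgmn*, which process the invariant chain and antigens, had log2 fold changes of -0.02, 0.18 and 0.21, and none was called. *Cd80* and *Cd86*, the costimulatory ligands, had -0.56 and 0.04, and *Marchf1*, a ligase that removes class II molecules from the surface, had -0.27. The gene for the alpha chain of H2-E, *H2-Ea*, which carries a deletion in several inbred strains, had 6 counts in all, 1 in KO mouse 2 and 5 in KO mouse 4. The partner chain of the *H2-Eb1* product was thus nearly absent from the counts, and whether H2-E molecules were made was not tested.

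The factors that bind class II promoters together with *Ciita* varied little. Of the 7 RFX, NF-Y and Creb1 genes tested, 1 was called, *Nfyc*, which was lower in KO (log2 fold change -0.30, adjusted p = 0.0164 by edgeR's quasi-likelihood test). Over all genes tested, 13.9% were called as lower. The log2 fold changes of the 7 were between -0.30 and 0.24, with a median of -0.14. *Rfx5* was at 7.60 to 11.4 CPM in KO and 8.51 to 12.7 CPM in WT. In KO mouse 5 these genes were at 0.877 to 1.24 times the median of the other KO mice, where the members were at 2.84 to 4.59 times.

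Genes of the interferon gamma pathway were high in KO mouse 5. *Ifng*, the cytokine gene, was below the filter on low counts, with 19 counts in KO mouse 5 and at most 3 counts in any other library. Of the 11 pathway genes tested, 7 were highest in KO mouse 5, each at over 1.5 times the next highest library. Over all genes tested, 13.7% were highest in this mouse and 1.14% were at over 1.5 times the next. *Gbp2*, a guanylate binding protein induced by interferons, was at 124 CPM there and at 25.4 CPM or less in the other 9 libraries, and *Ido1*, which degrades tryptophan, was at 113 CPM against at most 28.4 CPM. *Irf1*, an interferon-induced factor that acts on the *Ciita* promoter, was at 324 CPM against at most 172 CPM.

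Between the groups, 2 of these 11 genes were higher in KO and 1 was lower, and the median log2 fold change was 0.55. Over all genes tested, 16.0% were called as higher and 13.9% as lower. *Socs1*, the feedback inhibitor of the pathway, was higher in KO with 2.64 to 4.31 CPM in WT and 5.58 to 19.99 CPM in KO (log2 fold change 1.596, adjusted p = 0.00581 by edgeR's quasi-likelihood test). *Ifngr1*, the receptor chain that binds the cytokine, was also higher (log2 fold change 0.55, adjusted p = 0.00343), and *Jak2*, the kinase of the other receptor chain, was lower (-0.56, adjusted p = 0.0225), by the same edgeR test. *Ifngr1* and *Jak2* were not highest in KO mouse 5. *Socs1* was above the WT range in all 5 KO mice, so that its difference was not limited to KO mouse 5.

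The class I pathway also stood out in KO mouse 5. Of its 11 genes, 10 were highest in this mouse and 7 were at over 1.5 times the next highest library. Over all genes tested, these shares were 13.7% and 1.14%. *Tap1*, a chain of the peptide transporter, was at 288 CPM against at most 93.2 CPM in the other libraries. *Psmb9*, a subunit of the immunoproteasome, was at 206 CPM against at most 72.4 CPM. The class I heavy chain gene *H2-K1* was at 2947 CPM and at 1289 to 2092 CPM in the other 9. *Nlrc5*, the class I counterpart of *Ciita*, was the 1 gene of the list called between the groups, as higher in KO (log2 fold change 1.40, adjusted p = 0.0463 by edgeR's quasi-likelihood test), with 66.4 CPM in KO mouse 5 and at most 20.7 CPM elsewhere. It was not called without KO mouse 5, nor without KO mouse 2, KO mouse 3 or any 1 of the WT mice. The median log2 fold change over the 11 class I genes was 0.10, and it was -0.23 without KO mouse 5.

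**Figure D5:**
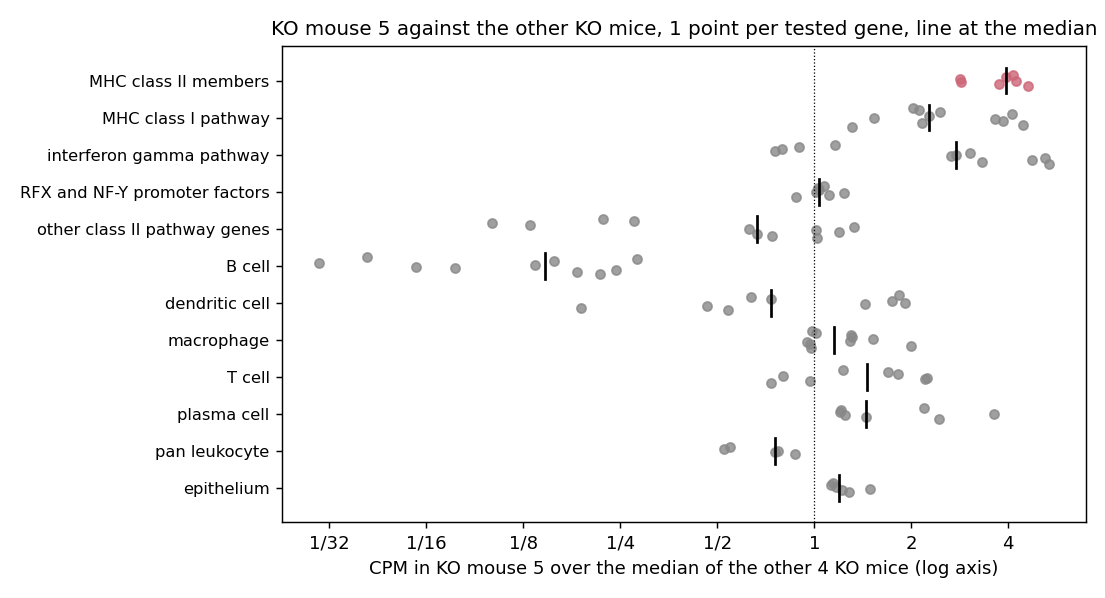
CPM in KO mouse 5 divided by the median of the other 4 KO mice (log axis), with 1 point for each tested gene of 12 gene lists and a line at the median of each list. The class II members (red) lie between 2.84 and 4.59, the class I and interferon gamma genes have medians of 2.26 and 2.75, and the B cell genes lie between 0.0290 and 0.282.

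The summed dendritic cell and macrophage markers did not follow the members in KO mouse 5, although single genes were raised there over the other KO mice. The 9 dendritic cell genes had a summed level of 66.6 to 86.9 CPM in WT and 63.5, 40.2, 37.1, 32.5 and 48.2 CPM in KO mice 1 to 5. The integrin gene *Itgax* was lower in KO, with 39.9 to 59.9 CPM in WT and 12.1 to 38.6 CPM in KO (log2 fold change -1.12, adjusted p = 0.0160 by edgeR's quasi-likelihood test). The 10 macrophage genes had a summed level of 406 to 525 CPM in WT and of 402, 379.9, 251, 277 and 386 CPM in KO mice 1 to 5. KO mouse 5 was thus within the range of the other KO mice for both lists. Of these lists, *Clec10a* and *Cd14* were called as higher in KO, and *Itgax*, *Cd209a*, *Mertk*, *Csf1r* and *Cx3cr1* as lower. For the dendritic cell genes KO mouse 5 was highest for 1 of 9, and for the macrophage genes for 3 of 10, none at over 1.5 times the next library. Over all genes tested, these shares were 13.7% for highest and 1.14% for over 1.5 times the next.

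The summed level of 6 epithelial genes was 9949 to 11809 CPM in WT and 15049, 13513, 13473, 11319 and 16651 CPM in KO mice 1 to 5. KO mouse 5 had the highest and KO mouse 4 the lowest sum among KO mice, as for the members, and the range between them was narrower than that of the members. The keratin genes *Krt8* and *Krt19* and *Epcam* were called as higher in KO. The log2 fold changes of *Vil1*, which encodes a protein of the brush border, and of the cadherin gene *Cdh17* were -0.49 and -0.41 (adjusted p = 0.105 and 0.0942 by edgeR's quasi-likelihood test). The 8 T cell genes were summed to 52.9 to 96.3 CPM in WT and to 43.4 to 71.6 CPM in KO, with 71.6 CPM in KO mouse 5. By edgeR's quasi-likelihood test 0 of the 8 were called, 4 had an unadjusted p under 0.05 and DESeq2 called 1 as lower. Over all genes tested by edgeR, 29.9% were called and 43.3% had an unadjusted p under 0.05. The sum of the 5 pan-leukocyte genes was 186 CPM in KO mouse 5 and 192 CPM or more in the other 9 libraries, although only *Ptprc* and *Laptm5* of the 5 were lowest in KO mouse 5. Of these 5 genes, *Cd52* was called, as higher in KO (log2 fold change 0.52, adjusted p = 0.0336 by the same test). Plasma cell genes, led by *Igha*, were summed to 3732 to 7450 CPM in WT and to 4700, 3672, 3025, 1194 and 7725 CPM in KO mice 1 to 5. As for the members, KO mouse 5 had the highest and KO mouse 4 the lowest sum among KO mice, but KO mouse 5 was just above the highest WT mouse. Most of that sum was *Igha* and *Jchain*. The 1 called gene of the 7 was *Sdc1*, a surface proteoglycan gene that epithelial cells also express, which was higher in KO (log2 fold change 0.998, adjusted p = 2.52e-04 by edgeR's quasi-likelihood test). The part of any of these cell types in the class II levels was not tested.

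The genes most like the members were found by the correlation of log2 CPM with the mean of the members over the 10 libraries, after the group means had been subtracted. They were *Sbno2* (r = 0.971), *Uba7* (0.969), *Calr* (0.969), *Trim26* (0.969) and *Upp1* (0.968). All 5 were highest in KO mouse 5. *Upp1*, which encodes uridine phosphorylase, was at 978 CPM there and at 65.8 to 143 CPM in the other libraries, while *Sbno2* was at 152 CPM against 77.7 to 108 CPM. Among the members, the correlation of each with the mean of the other 6 was between 0.831 for *Ciita* and 0.998 for *H2-Eb1*. The libraries are shared between all these values, and 1 of the 10 points is KO mouse 5, so that the correlations are given as a description.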

How the data were processed

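RNA-seq counts of proximal small intestine from 5 WT and 5 KO mice were used, 1 library per mouse. As deposited, the values were whole read counts for each Ensembl gene ID, which the authors had not normalized. The submitters' processing notes name FastQC 0.11.9, Trimmomatic, HISAT2 2.0.4, SAMtools 1.3.1, DESeq2 1.14.1 and the build GRCm38/mm10. How reads were counted, with which annotation and whether by strand, is not given in the sources used here. Symbols came from GENCODE M21 (34490 of 35275 IDs), promoters from RefSeq. All 785 IDs without a symbol stayed in the test.

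Groups were compared in R 4.3.3 with the quasi-likelihood test of edgeR 4.0.16 on the 15610 genes that filterByExpr kept (minimum count 10 and total 15), with TMM scaling and Benjamini-Hochberg adjustment over all of them (threshold 0.05). Ratios of members were compared by exact permutation tests. The test was checked on simulated counts. Alternatives were other scalings, DESeq2 1.42.0, other filters, robust dispersion, the replicate number as a block, 5 marker scores as covariates and leaving out each library. A covariate or a smaller set of libraries changes what the fold change means, since it is then relative to that score or those mice. By counting error alone, a count of 0 allows up to 3 counts.

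The members and the 14 other gene lists were chosen with earlier results of these data known. Genes were named from the members, all further class II pathway and promoter factor genes, the 3 most abundant genes of each other list with its called genes of the highest and lowest fold change, *Slc39a14*, and the 5 genes most like the members. *Ifng*, *Gbp2*, *Ido1*, *Tap1*, *Psmb9*, *Ms4a1*, *Pax5*, *Cdh17*, *Cx3cr1*, *Clec9a*, *Xcr1*, *Fcgr1* and the further genes named where single libraries stand apart were named after their values were seen.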

Additional observations from a re-analysis of the deposited data

Results flagged for a closer look

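Within a group of 5 libraries, a value was singled out where the gap between the highest or lowest library and its nearest neighbour was over 0.71 of the range of the group (Dixon's test). Of 91 genes checked in both groups, which makes 182 sets of 5 libraries, 37 values were singled out, while chance gives about 1 in 20 sets. That rate holds for unselected and independent sets, whereas some of these genes were named after their values were seen or for their likeness to the members, and many sets share KO mouse 5 or WT mouse 5. KO mouse 5 gave 18 of them and WT mouse 5 gave 13.

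KO mouse 5 was far above the other 4 KO mice for *H2-Aa* (1397 CPM), *H2-Ab1* (1653 CPM), *H2-Eb1* (932 CPM), *Cd74* (3783 CPM), *H2-DMa* (172 CPM) and *H2-DMb1* (180.4 CPM). The same mouse stood apart for the interferon gamma pathway genes *Ifng* (0.997 CPM), *Irf1* (324 CPM), *Gbp2* (124 CPM), *Cxcl9* (28.9 CPM) and *Ido1* (113 CPM). It also stood apart for the class I pathway genes *H2-K1* (2947 CPM), *H2-D1* (2055 CPM), *Tap1* (288 CPM), *Psmb8* (193 CPM), *Psmb9* (206 CPM) and *Nlrc5* (66.4 CPM), and for *Upp1* (978 CPM). For *Ciita*, KO mouse 5 was the highest library but was not singled out.

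WT mouse 5 was far above the other 4 WT mice for the B cell genes *Cd79a* (27.2 CPM), *Cd79b* (17.1 CPM), *Ms4a1* (15.5 CPM), *Cr2* (13.7 CPM), *Fcer2a* (10.3 CPM), *Pax5* (3.31 CPM), *Cxcr5* (3.98 CPM) and *Cd37* (24.9 CPM). It stood apart likewise for the class II pathway genes *H2-DMb2* (13.2 CPM), *H2-Ob* (16.3 CPM) and *H2-Eb2* (5.94 CPM) and for the follicle genes *Cxcl13* (8.07 CPM) and *Ltb* (10.8 CPM). None of the 7 members was singled out in this mouse.

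The remaining values were single ones. *H2-DMb1* was lowest in WT mouse 2 (27.0 CPM), although the 5 WT mice differed little. *H2-Ea* was highest in KO mouse 4 (0.238 CPM, 5 counts), *Cd80* in KO mouse 1 (1.13 CPM), *Acta2* in KO mouse 4 (1672 CPM) and *Slc39a14* in KO mouse 1 (160.1 CPM). *Slc51b* was lowest in WT mouse 1 (19.5 CPM).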

How the results depend on the processing

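Across the alternatives, the log2 fold change of a member was recomputed 161 times. It was positive in 158 and past the threshold in 19. With an epithelial score as a covariate it was -0.34 for *H2-Ab1*, -0.11 for *Cd74* and -0.10 for *H2-DMb1*, and the cause was not tested. The number of members called as higher, 0 with all libraries, was 1 with scaling to library size only, 2 with DESeq2, 3 with the B cell score, 5 with the pan-leukocyte score and 3 without the 4 libraries with raised B cell genes (chosen after seeing the data), and 0 to 3 with single libraries left out. The counts of B cell genes called as higher (1) were 2 with library size only, 3 with DESeq2, 5 with the epithelial score, and 0 with the robust fit, with each of the other 4 scores (B cell, pan-leukocyte, dendritic cell, smooth muscle) and without those 4 libraries, and 0 to 8 with single libraries left out (8 without WT mouse 5). Class I genes called as higher (1) were 0 with no filter, the robust fit, the dendritic cell, smooth muscle or epithelial score and without the 4 libraries, and 0 to 1 with single libraries left out. Class I genes called as lower (0) were 1 with the epithelial score and 0 to 1 with single libraries left out. For interferon gamma genes, tried after seeing the data, higher calls (2) were 4 with the pan-leukocyte score, 0 with the smooth muscle score, 1 without the 4 libraries and 2 to 3 with single libraries left out. Lower calls (1) were 0 with library size only, the B cell, dendritic cell or smooth muscle score and without the 4 libraries, and 0 to 1 with single libraries left out.

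Over all genes, 2491 were called as higher and 2169 as lower. The counts were 1067 and 1181 with the B cell score, 1509 higher with the pan-leukocyte score, 1010 and 1288 with the dendritic cell score, 5 and 1 with the smooth muscle score, and 544 and 582 without the 4 libraries. They were 1634 to 2944 and 1573 to 2563 with single libraries left out, lowest without WT mouse 2. Scaling to library size only gave 3608 higher and 1589 lower. The log2 differences of the ratios were 0.28 to 0.37 for *H2-Aa* to *H2-Ab1*, 0.20 to 0.26 for *Cd74* to *H2-Ab1*, 0.03 to 0.19 for *H2-DMa* to *H2-DMb1* and -0.22 to 0.02 for *Ciita* to *Cd74* with single libraries left out, the last being 0.0041 without KO mouse 1 and 0.021 without KO mouse 5.

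The replicate numbers did not pair the mice, since the correlations of same-numbered libraries were between -0.17 and 0.18 and only number 4 matched best with itself. With the replicate number as a replicate block, 0 members, 0 B cell genes and 0 class I genes were called as higher, against 1950 higher and 1898 lower calls over all genes, and the log2 fold changes of the members were 0.38 to 0.83 in place of 0.64 to 1.16.

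The main limits are 5 mice per group, KO mouse 5 and the segments' ileal and smooth muscle genes, which differed with genotype in every mouse. *Ifng*, *H2-Ea*, *Cr2*, *Fcer2a* and *Pax5* were below the filter on low counts and had no edgeR result. Replicates are separate mice of each genotype by the labels, and litter or day of dissection was not used here.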
